A study of Mus musculus with 12 samples.

Results

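The interleukin-1 receptor cluster of the mouse is a row of 6 genes on chromosome 1, and it was examined in an OMNI-ATAC-seq comparison of embryonic fibroblasts (MEFs) with embryonic stem cells (mESCs). In gene order these are Il1r2, Il1r1, Il1rl2, Il1rl1, Il18r1 and Il18rap, which together covered 477.6 kb of GRCm38 (chr1:40074079-40551705, all on the plus strand). A peak was a member if it overlapped 1 of these gene bodies (GENCODE M21) extended by 10 kb. This gave 20 of the 91354 peaks called across both cell types on BGI, 19 of 87027 on Illumina, 18 of 61891 MEF peaks of both platforms and 5 of 67063 mESC peaks of both platforms. The cluster was picked out because a peak in an intron of Il1rl1 had the third smallest p among all peaks higher in MEFs on BGI, so the members were chosen by their read counts in mESCs against MEFs, and for them this contrast is given as a description. No p is given for a member in it, and where members called by the fit over all peaks are counted, the share of all peaks stands beside the count and nothing is read from either.

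OMNI-ATAC-seq uses the Tn5 transposase to insert sequencing adapters into open DNA, so that reads pile up at accessible regions. The MEFs were cultured cells sorted as THY1+, and the mESCs were sorted as THY1-, SSEA1+ and EPCAM+, and both were of a C57/Bl6 background with no treatment or gene edit named for either. Libraries 1, 2 and 4 of the MEFs and 1, 3 and 5 of the mESCs were each read by 2 sequencers, the DNBSEQ-G400 (BGI) and the HiSeqX10 (Illumina), to ask whether the results depend on the sequencer, and gave 12 samples in 4 groups of 3. BGI reads were 100 bp long and Illumina reads of 150 bp were trimmed to 100 bp. Between 20.1 M and 21.7 M reads of a MEF sample and between 15.9 M and 17.0 M of an mESC sample fell in the peaks of its platform. Promoter peaks of the fibroblast marker list (all 7 genes, Thy1, Col1a1, Col1a2, Pdgfra, Pdgfrb, Twist1 and Prrx1, had one) summed to 382 to 443 counts-per-million (CPM) in MEFs and 129 to 139 CPM in mESCs on BGI. Those of the mESC list (all 6, Pou5f1, Nanog, Sox2, Esrrb, Epcam and Zfp42) summed to 42.8 to 44.0 and 309 to 356 CPM. Ptprc, Cd3e and Cd3g of T cells, Cpa3, Ms4a2 and Fcer1a of mast cells, Spi1 and Adgre1 of macrophages and Cdh5 of endothelium had no promoter peak in either peak set. On BGI the other macrophage marker, Csf1r, lay between 14.4 and 17.0 CPM in MEFs and 1.01 and 2.77 CPM in mESCs, the mast cell marker Kit between 20.6 and 24.5 and 41.1 and 43.2 CPM, and the endothelial markers Pecam1 and Kdr between 28.3 and 31.3 and 20.3 and 24.5 CPM. On Illumina Csf1r and Kit kept this order, but Pecam1 and Kdr overlapped, with 26.6 to 36.3 CPM in MEFs and 29.0 to 32.2 CPM in mESCs. The part of other cells in the MEF signal below was not tested, and in bulk samples fewer open cells and less accessible DNA in each cell cannot be told apart.

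The 6 genes encode receptors of the interleukin-1 family, which carry immunoglobulin domains outside the cell and a TIR domain, or a short tail, inside it. Il1r1 encodes the receptor through which IL-1 alpha and IL-1 beta signal, and Il1r2 a decoy that binds IL-1 without signaling. Il1rl2 encodes the receptor of the IL-36 cytokines, Il1rl1 the IL-33 receptor ST2, and Il18r1 and Il18rap the chains of the IL-18 receptor. Ligand binding recruits a second chain, which for IL-1, IL-33 and IL-36 is the shared co-receptor Il1rap, and the paired TIR domains then bind the adaptor Myd88 and lead through Irak kinases and Traf6 to NF-kB. Il1rl1 is known for alternative promoters, a distal one used in mast cells and other blood cells and a proximal one used in fibroblasts. Fibroblasts are well known to respond to IL-1.

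The sequences on which the description turns are printed 5′ to 3′ on the plus strand of GRCm38, with motif matches in capitals and all else in lower case. The first 3 are the central 300 bases of intron peaks, namely the tallest MEF peak of Il1rl1 (chr1:40444797-40445096), the tallest of Il1rl2 (chr1:40358801-40359100) and the intron peak of Il1r1 that was higher in mESCs (chr1:40306175-40306474). The other 4 are the bases before start sites of the RefSeq promoter table for build GRCm38.p6, which listed all 6 genes: both promoters of Il1r1, which differed in their pattern (chr1:40224830-40225079 and chr1:40266336-40266585), and both of Il1rl1, of which only 1 lay in a called peak (chr1:40429320-40429569 and chr1:40439379-40439626).
Il1rl1 intron peak: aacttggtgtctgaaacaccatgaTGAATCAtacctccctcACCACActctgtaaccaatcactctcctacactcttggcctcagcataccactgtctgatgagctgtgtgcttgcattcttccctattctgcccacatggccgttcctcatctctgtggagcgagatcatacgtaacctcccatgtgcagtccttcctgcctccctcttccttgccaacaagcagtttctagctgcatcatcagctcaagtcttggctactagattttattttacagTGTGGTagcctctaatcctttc
Il1rl2 intron peak: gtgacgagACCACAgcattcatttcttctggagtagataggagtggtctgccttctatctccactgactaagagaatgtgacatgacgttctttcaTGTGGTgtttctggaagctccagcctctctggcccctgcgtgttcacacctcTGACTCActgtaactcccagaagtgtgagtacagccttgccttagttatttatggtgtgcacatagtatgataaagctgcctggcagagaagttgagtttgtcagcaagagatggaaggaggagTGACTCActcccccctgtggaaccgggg
Il1r1 intron peak, higher in mESCs: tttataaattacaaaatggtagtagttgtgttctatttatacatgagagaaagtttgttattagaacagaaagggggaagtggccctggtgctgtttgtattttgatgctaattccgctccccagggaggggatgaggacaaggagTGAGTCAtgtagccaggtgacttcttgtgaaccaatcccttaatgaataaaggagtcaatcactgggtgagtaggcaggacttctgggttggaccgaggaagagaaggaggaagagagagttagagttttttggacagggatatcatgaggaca
Il1r1 upstream promoter: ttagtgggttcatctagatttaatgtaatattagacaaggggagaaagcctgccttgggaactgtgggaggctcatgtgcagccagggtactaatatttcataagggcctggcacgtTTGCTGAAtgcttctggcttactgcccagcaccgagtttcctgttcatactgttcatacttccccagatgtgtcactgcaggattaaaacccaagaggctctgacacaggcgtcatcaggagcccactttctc
Il1r1 downstream promoter: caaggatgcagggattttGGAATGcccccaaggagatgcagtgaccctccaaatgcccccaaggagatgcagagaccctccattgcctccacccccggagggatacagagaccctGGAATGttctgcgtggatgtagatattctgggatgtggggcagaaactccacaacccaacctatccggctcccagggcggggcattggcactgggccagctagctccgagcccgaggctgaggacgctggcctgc
Il1rl1 upstream promoter: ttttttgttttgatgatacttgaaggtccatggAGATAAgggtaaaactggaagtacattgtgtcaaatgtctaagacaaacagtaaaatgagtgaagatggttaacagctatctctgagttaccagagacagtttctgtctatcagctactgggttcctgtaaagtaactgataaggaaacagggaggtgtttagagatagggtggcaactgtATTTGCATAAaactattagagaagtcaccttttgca
Il1rl1 downstream promoter: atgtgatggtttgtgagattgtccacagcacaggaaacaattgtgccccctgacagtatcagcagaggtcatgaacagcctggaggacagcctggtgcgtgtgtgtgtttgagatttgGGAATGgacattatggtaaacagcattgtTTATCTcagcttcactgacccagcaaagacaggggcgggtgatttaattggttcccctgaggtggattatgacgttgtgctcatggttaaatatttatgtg

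The capitals mark matches on either strand. AP-1 was searched as TGANTCA and C/EBP as TTGCNNAA. TEAD was searched as GGAATG and the octamer as ATGCAAAT. RUNX was searched as TGTGGT and ESRRB as TCAAGGTCA. GATA was searched as AGATAA and KLF as GGGNGTGGC. NF-kB and CTCF motifs were searched in whole peaks only, and the only overlapping matches were a C/EBP and an octamer match in the upstream promoter of Il1rl1. The Il1rl1 intron window held 1 AP-1 and 2 RUNX matches, and the Il1rl2 intron window held 2 of each. Over the whole peaks of the BGI set, AP-1 letters were in 7 of the 20 members, against 25.2% of all 91285 peaks with sequence, TEAD letters in 8 against 31.7%, RUNX letters in 7 against 31.8%, C/EBP letters in 4 against 17.3% and GATA letters in 5 against 18.0%. The mESC-higher peak of Il1r1 was among the 7 with AP-1 letters. No member held an octamer, ESRRB, KLF or CTCF match (3.21%, 1.42%, 7.11% and 4.43% of all peaks), and 3 held an NF-kB match (8.09%). Among 32817 RefSeq promoters of 300 bases, 7.81% held AP-1, 14.7% TEAD, 16.8% RUNX, 11% C/EBP, 11.2% GATA and 1.74% octamer letters. A match of letters is a description and not a bound site, and the shares of members were not tested against those of all peaks.

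Most of the accessible DNA of the cluster lay in MEFs. Summed over the 20 members of the BGI set, the BGI samples gave 297 ± 11.1 CPM (SD, n = 3) in MEFs and 50.3 ± 3.06 CPM in mESCs, a ratio of 5.92. On Illumina, with its own 19 members, the sums were 269 ± 1.48 and 52.6 ± 3.14 CPM. Il1rl1 peaks summed to 69.6 ± 5.28 CPM in MEFs and 2.23 ± 0.228 CPM in mESCs on BGI. For Il1r1 the sums were 114 ± 8.83 and 20.4 ± 0.553 CPM, for Il1rl2 87.3 ± 4.0 and 17.4 ± 0.886 CPM, and for the decoy gene Il1r2 26.2 ± 3.19 and 10.3 ± 1.9 CPM. On Illumina, with its own members, Il1r1 summed to 107 ± 7.10 and 20.8 ± 1.16 CPM, Il1rl2 to 81.6 ± 5.21 and 14.7 ± 0.421 CPM, and Il1r2 to 27.0 ± 5.24 and 9.02 ± 1.49 CPM. Il1r2 thus had the smallest ratio of MEFs to mESCs on either platform, 2.55 and 2.99. The ratio of Il1rl1 depended on the peak set, with 31.3 on BGI, and 53.6 ± 2.68 against 8.01 ± 1.85 CPM or 6.70 on Illumina, whose members include an intron 10 peak of this gene that was higher in mESCs and is described below. The BGI samples counted over the Illumina members gave 7.68. Il18r1 and Il18rap had no member peak of their own in either set. Of the 20 members, 18 were called higher in MEFs (edgeR adjusted p under 0.05), 1 was called higher in mESCs, and 1 was not called. Over all peaks 43.2% were called higher in MEFs and 40.9% higher in mESCs. On Illumina 17 of 19 members were called higher in MEFs and 2 higher in mESCs, beside 42.4% and 42.1% of all peaks. As the cell type contrast chose the cluster, nothing is read from these counts. The median log2 difference, mESC against MEF, was -4.10 over the members and -0.08 over all peaks on BGI, and -4.35 and -0.03 on Illumina. The 3 MEF and 3 mESC samples did not overlap in CPM at 19 of 20 members on BGI (85.1% of all peaks) and at 19 of 19 on Illumina (85.6%).

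**Figure D1:**
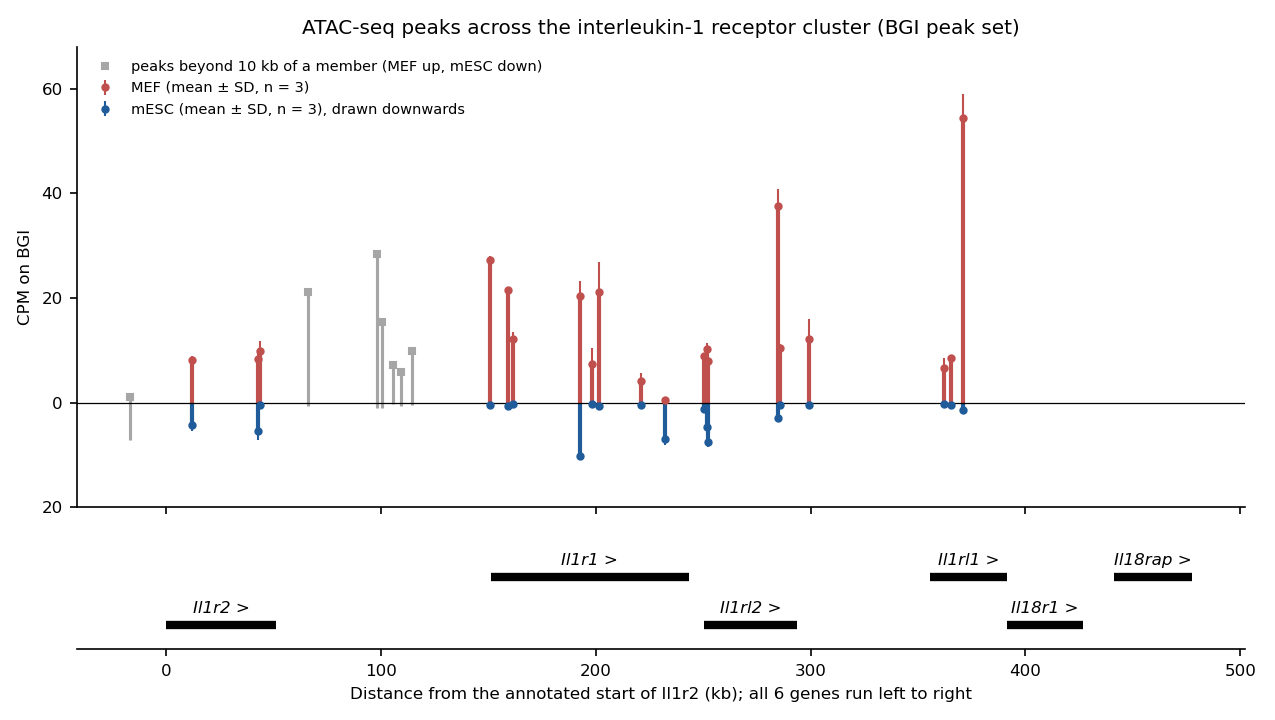
Mean CPM ± SD (n = 3) of each peak on BGI against its distance in kb from the annotated start of Il1r2, with MEFs drawn upwards, mESCs downwards and the 6 gene bodies underneath. The tallest MEF stem is the Il1rl1 intron peak at 54.5 CPM, and the bodies of Il18r1 and Il18rap carry no stem.

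The Il1rl1 intron peak (chr1:40444696-40445197) was the tallest of the cluster in MEFs. It lay in intron 6 of the transcript ENSMUST00000097772.9, 15.4 kb after the distal start of the gene. On BGI it held 55.9, 58.2 and 49.4 CPM in MEFs 1, 2 and 4 (1212, 1170 and 993 reads) and 1.39, 1.48 and 1.37 CPM in mESCs 1, 3 and 5 (22, 25 and 22 reads). Illumina gave 48.2, 47.9 and 42.3 CPM in MEFs and 1.0, 1.24 and 0.372 CPM in mESCs at the matching peak of its own set. All MEF samples thus stood far above all mESC samples on either platform, and the peak was higher than 98.2% of all peaks in MEFs. The log2 difference was -5.33 ± 0.15 (SE) on BGI and -5.75 ± 0.20 on Illumina, and these are the values the cluster was chosen for. In MEFs the called summit stood 65.3 to 78.6 times over the genome-wide background on BGI and 55.3 to 65.4 times on Illumina, and no mESC sample had a called summit in the peak. This 1 peak took between 15.6% and 19.8% of the reads of the cluster in MEF samples and between 0.824% and 3.03% in mESC samples.

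Both promoter peaks of Il1rl1 were open in MEFs and close to empty in mESCs. The peak at the proximal start site (chr1:40439333-40439834, centered at -44 bp from the start at 40439627) held 8.91, 8.05 and 8.66 CPM in MEFs 1, 2 and 4 and 0.504, 0.591 and 0.559 CPM in mESCs 1, 3 and 5 on BGI, a log2 difference of -4.0 ± 0.27. On Illumina the matching peak gave 7.42, 6.11 and 7.93 CPM and 0.125, 0.236 and 0.310 CPM. A second peak, centered at -482 bp from the annotated start at 40436589 (chr1:40435857-40436358), held 8.72, 5.47 and 5.53 CPM in MEFs and 0.252, 0.414 and 0.124 CPM in mESCs (log2 difference -4.66 ± 0.41), and MEF 1 was the highest of the 3. It was on the reproducible list of MEFs on BGI alone, and no peak of the Illumina set covered at least 50% of it. The signal was there on Illumina too. Its reads in the same interval gave 7.28, 6.59 and 4.07 CPM in MEFs and 0.496, 0.468 and 0.123 CPM in mESCs. All 3 Illumina MEF samples had a called summit in it. The distal start at 40429570 carried no called summit within 500 bp in any of the 12 samples.

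Among start sites with a peak, those of Il1r1 differed most from each other in the log2 difference between the cell types. At the upstream promoter (chr1:40224776-40225277, centered at -54 bp from the start at 40225080) MEFs 1, 2 and 4 held 27.9, 26.3 and 27.5 CPM and mESCs 1, 3 and 5 held 0.757, 0.65 and 0.311 CPM on BGI. The log2 difference was -5.62 ± 0.21, and on Illumina -5.99 ± 0.22. At the downstream promoter (chr1:40266330-40266831), 41.5 kb into the gene, the values were 21.5, 17.1 and 22.5 CPM in MEFs and 9.71, 10.6 and 10.3 CPM in mESCs, a log2 difference of -1.06 ± 0.14. Illumina gave 21.5, 25.2 and 28.7 CPM and 13.0, 14.9 and 12.6 CPM there (-0.94 ± 0.13). The downstream promoter was therefore open in both cell types, with no overlap between the groups, whereas no mESC sample had a called summit at the upstream one. The downstream promoter also had the highest GC content of the 20 members, 65.7%, where the lowest was 39.4%, the median 47.0% and the median of all peaks 51.0%. The other 6 peaks assigned to Il1r1 lay in its introns or touched an exon, and 5 of them were higher in MEFs, with log2 differences from -5.34 to -2.97 on BGI.

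The sixth, an intron peak of Il1r1 (chr1:40306074-40306575), went the other way, and it is singled out here after its values were seen. It held 0.60, 0.447 and 0.498 CPM in MEFs 1, 2 and 4 and 6.81, 6.09 and 8.20 CPM in mESCs 1, 3 and 5 on BGI (log2 difference 3.68 ± 0.31, and 3.33 ± 0.34 on Illumina). Its summit was called in all 6 mESC samples, 7.80 to 14.8 times over background, and in no MEF sample. On Illumina a further peak in intron 10 of Il1rl1 (chr1:40457870-40458371), also within 10 kb of Il18r1, held 0.233, 0.447 and 0.394 CPM in MEFs and 5.69, 8.67 and 6.39 CPM in mESCs (log2 difference 4.21 ± 0.34). The BGI reads counted in the same interval gave 0.284, 0.306 and 0.510 CPM and 5.64, 6.54 and 7.39 CPM, so the signal was there on BGI although its peak set held no such peak. These peaks, 1 on BGI and 2 on Illumina, were the only members higher in mESCs.

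At Il1rl2, the IL-36 receptor gene, 3 neighboring promoter peaks differed in how far apart the cell types stood. The first, at the annotated start (chr1:40324292-40324793), held 8.82, 8.60 and 9.51 CPM in MEFs 1, 2 and 4 and 1.51, 1.06 and 1.43 CPM in mESCs 1, 3 and 5 on BGI (log2 difference -2.81 ± 0.24). The next (chr1:40325414-40325915), on a second start, held 9.88, 9.24 and 11.6 CPM and 4.92, 4.20 and 4.66 CPM (-1.22 ± 0.18). The last (chr1:40325925-40326426) held 8.08, 7.31 and 8.56 CPM in MEFs and 6.62, 8.34 and 7.89 CPM in mESCs, where the groups overlapped (-0.13 ± 0.18). On Illumina its values were 8.49, 9.39 and 9.75 CPM and 6.44, 7.31 and 6.26 CPM, which did not overlap (-0.51 ± 0.17). The tallest peak of the gene lay in intron 9 (chr1:40358700-40359201), with 39.7, 39.2 and 33.6 CPM in MEFs and 3.15, 2.19 and 3.48 CPM in mESCs (-3.74 ± 0.16). It was also the second tallest MEF peak of the cluster, and mESC samples kept a few reads there (37 to 56 on BGI). The only member outside a gene body lay behind Il1rl2 (chr1:40372904-40373405) and held 12.2 ± 3.79 CPM in MEFs and 0.495 ± 0.227 CPM in mESCs.

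Il1r2, the decoy receptor gene, had the smallest contrast. Its promoter peak (chr1:40085672-40086173) was at the third of its start regions, 11.8 kb into the gene, where the antisense gene Gm16894 is also annotated, and ATAC-seq reads cannot be given to either gene. It held 8.91, 7.85 and 7.67 CPM in MEFs 1, 2 and 4 and 4.67, 2.90 and 5.09 CPM in mESCs 1, 3 and 5 on BGI (log2 difference -1.02 ± 0.22, and -1.34 ± 0.19 on Illumina). A peak in intron 5 (chr1:40116366-40116867) held 7.02, 7.65 and 10.1 CPM and 3.53, 6.09 and 6.90 CPM, so the highest mESC sample lay just under the lowest MEF sample (-0.64 ± 0.23). Without MEF 4 this difference was -0.49 and without mESC 1 it was -0.41. Next to it, another intron 5 peak (chr1:40117476-40117977) stood at 9.82 ± 2.02 and 0.552 ± 0.104 CPM (-4.20 ± 0.29). On Illumina mESC 1 had no read in that peak, which allows up to 3 reads by counting error, and mESC 3 had 17.

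**Figure D2:**
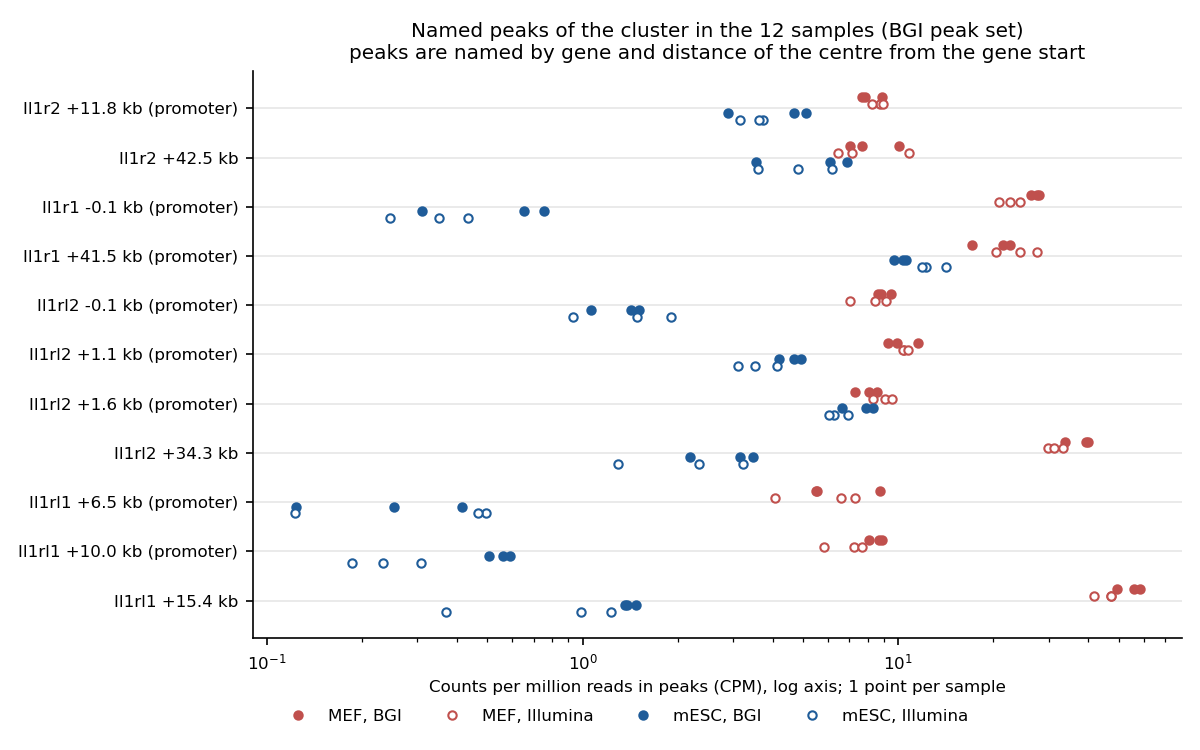
CPM on a log axis in each of the 12 samples (filled points BGI, open points Illumina, MEFs red, mESCs blue) at 11 peaks of the BGI set, named by gene and distance of the peak's center from the gene's start. MEF and mESC points lie furthest apart at the Il1r1 start and the Il1rl1 intron peak, and come together at the Il1rl2 peak 1.6 kb into the gene.

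The called summits of each sample, which do not depend on the merged peak sets, gave the state of every annotated start site, including those of the IL-18 receptor genes. Within 500 bp of the Il1r1 upstream start, all 6 MEF samples had a called summit with a -log10 p of 113 to 198, and no mESC sample had one. At the downstream start of Il1r1 the values were 77.4 to 167 in MEFs and 45.5 to 60.9 in mESCs. The proximal start of Il1rl1 had 28.4 to 55.9 and the one 7.02 kb after the distal start 12.4 to 53.3 in MEFs, with no call in any mESC sample. The start region of Il18r1 (40465552 to 40466006) showed the opposite order at a low level. All 6 mESC samples had a summit there with a -log10 p of 3.83 to 7.55 and 3.02 to 4.50 times over background, and 1 of 6 MEF samples did (3.41). At Il18rap the single start had a summit in 3 of 6 MEF samples, with a -log10 p of 10.5 in MEF 1 on BGI, 6.83 in MEF 1 on Illumina and 3.41 in MEF 2 on Illumina, and no mESC sample had any summit in the whole Il18rap window. Across the window of Il1r1 there were 32 to 39 summits in a MEF sample and 7 to 10 in an mESC sample, and across that of Il1rl1 8 to 10 and 2 to 4. A summit was called inside 19 of the 20 members in all 6 MEF samples and inside 5 of them in all 6 mESC samples. Of the 20, 16 were on a reproducible list of MEFs only, so these counts follow in part from how members entered the set. The share of all peaks was not counted, and nothing is read from them.

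**Figure D3:**
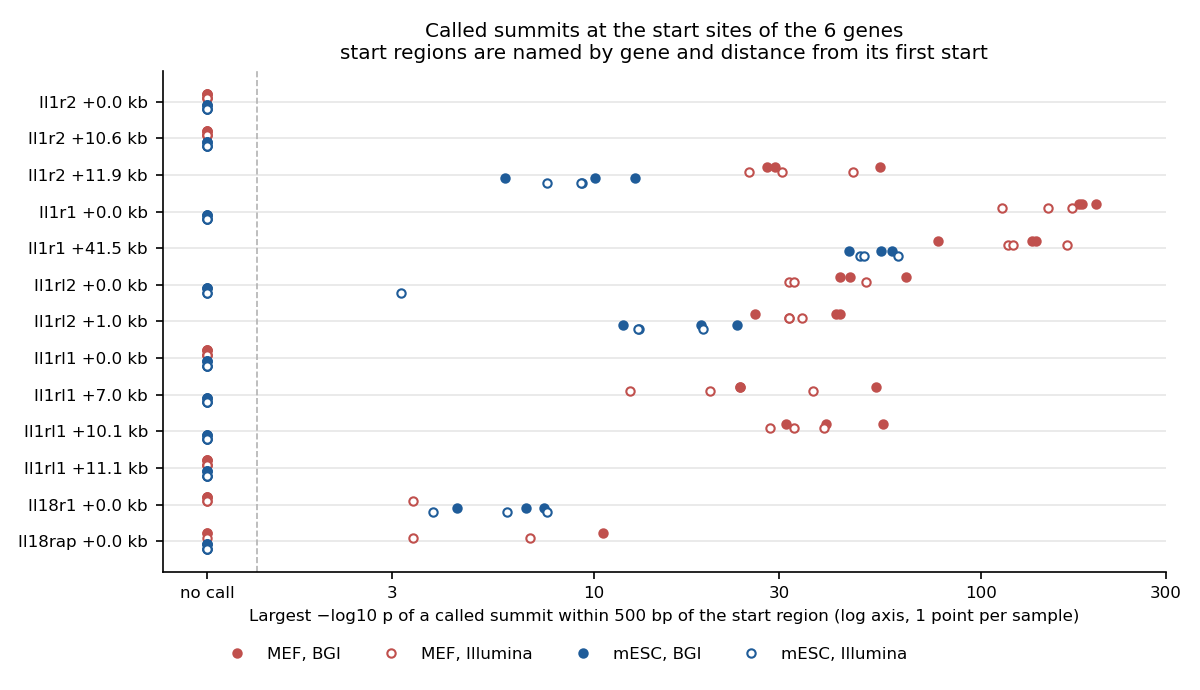
Largest -log10 p of a called summit within 500 bp of each start region of the 6 genes in each of the 12 samples (log axis, points left of the dashed line mean no call). MEF samples reach 113 to 198 at the first start of Il1r1, where mESC samples have no call, and at Il18r1 the mESC samples lie between 3.83 and 7.55. The -log10 p depends on depth, which was 60 M reads in MEFs and 45 M in mESCs.

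Peaks just beyond the limit of 10 kb belong to the same picture of the region. The nearest outside lay 14641 bp behind Il1r2 (chr1:40139872-40140373) and held 21.2 ± 1.54 CPM in MEFs and 0.753 ± 0.388 CPM in mESCs. A further 5 peaks between Il1r2 and Il1r1, at 36533 to 48848 bp from the nearest gene body of the cluster, were also higher in MEFs, with log2 differences from -5.00 to -3.07. In front of Il1r2, 16406 bp away, a peak held 1.01 ± 0.334 and 7.27 ± 1.24 CPM (2.78 ± 0.29). The next gene on that side, Map4k4, which encodes a kinase, had 5 promoter peaks. The strongest held 20.8 ± 2.0 and 14.1 ± 0.957 CPM (-0.63 ± 0.12), 3 others had log2 differences of -2.15, -1.08 and -1.01, and 1 lay on the side of mESCs, with 5.78 ± 1.36 and 8.36 ± 0.714 CPM (0.46 ± 0.20). Slc9a4 on the other side, which encodes a sodium and proton exchanger, had no peak in its body or within 10 kb. Among 25907 peaks at promoters of protein-coding genes, the 5 most like the Il1rl1 intron peak over the 6 BGI samples were those of Ift43, Acta2, Susd1, Col1a1 and Eps8. Their root mean square difference from it was 0.29 to 0.43 in log2(CPM + 0.5). The smooth muscle actin gene Acta2 held 55.3 ± 2.71 and 2.32 ± 0.378 CPM, and the collagen gene Col1a1 38.4 ± 5.18 and 1.61 ± 0.350 CPM.

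The ligands, the remaining receptors and the signaling genes of the family lie outside the cluster. Of 34 genes of these lists in the annotation, 24 had a promoter peak in the BGI set, and for these the contrast of cell types could be tested. On BGI 9 were higher in MEFs, 4 higher in mESCs and 11 did not pass (edgeR, adjusted p under 0.05), beside 41% and 31.3% of all promoter peaks. On Illumina 12 were higher in MEFs and 6 in mESCs, beside 42.4% and 31.6%. The median log2 difference was -0.13 on BGI, the same to 2 decimals as over all promoter peaks.

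Only 2 of 11 ligand and ligand-binding genes had a promoter peak, and neither was higher in MEFs. Il33, the ligand of the Il1rl1 receptor, held 3.85 ± 0.978 CPM in MEFs and 13.5 ± 1.80 CPM in mESCs (SD, n = 3; log2 difference 1.74 ± 0.20, edgeR adjusted p = 2.75e-07). Il18, whose peak is shared with the start of Bco2, held 10.5 ± 1.70 and 17.2 ± 2.06 CPM (0.65 ± 0.15, edgeR adjusted p = 0.00073). The IL-1 genes Il1a and Il1b and the receptor antagonist gene Il1rn had none, and the IL-36 ligand genes were searched under their older Il1f symbols, the ones in the annotation. Of the receptors encoded elsewhere, the shared co-receptor gene Il1rap was higher in MEFs, with 29.3 ± 1.87 and 16.1 ± 1.61 CPM (-0.93 ± 0.11, edgeR adjusted p = 5.36e-07). Sigirr, an inhibitory receptor of the family, was higher in mESCs, with 18.6 ± 0.881 and 39.7 ± 3.51 CPM (1.03 ± 0.11, edgeR adjusted p = 5.65e-08). Il1rapl2 did not pass on BGI (0.49 ± 0.23, edgeR adjusted p = 0.0609) and did on Illumina (0.64 ± 0.17, edgeR adjusted p = 0.00195). It passed on BGI too without MEF 4 (0.62) or mESC 5 (0.71), and with RLE size factors (0.53).

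All 19 signaling genes had a promoter peak, and 8 were higher in MEFs and 1 in mESCs on BGI (11 and 2 on Illumina). The largest difference by far was at Irak3, which encodes a kinase-like inhibitor of the pathway. Its peak held 0.831 ± 0.472 CPM in MEFs and 32.8 ± 1.26 CPM in mESCs (log2 difference 5.21 ± 0.24, edgeR adjusted p = 2.81e-12, and 5.24 ± 0.19 on Illumina). The lowest on BGI were Traf6, a ubiquitin ligase (-1.0 ± 0.12, edgeR adjusted p = 6.19e-07), and Tab2, an adaptor of the kinase Map3k7 (-0.73 ± 0.11, edgeR adjusted p = 4.71e-06). Chuk, the second highest on BGI, encodes a kinase of the NF-kB pathway and did not pass (0.16 ± 0.11, edgeR adjusted p = 0.201). The order differed on Illumina, where Irak4 (-0.77) and Map3k7 (-0.61) lay below Tab2 (-0.52), and Irak2 (0.23) above Chuk (0.11).

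**Figure D4:**
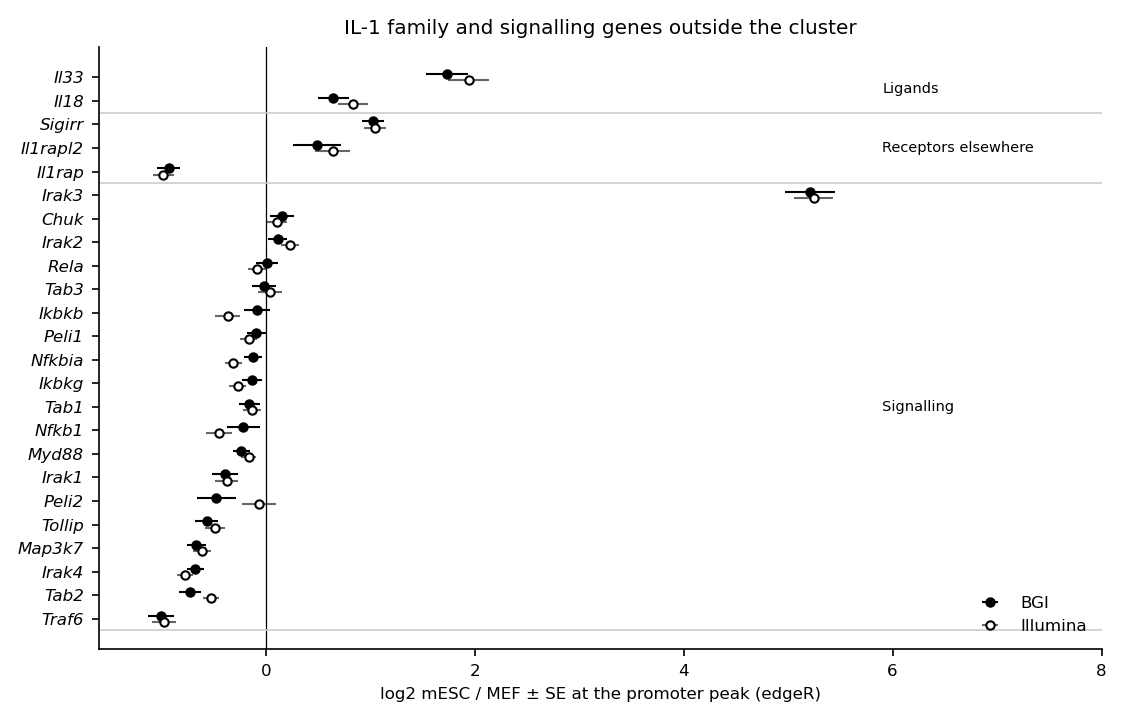
The log2 difference (mESC against MEF, ± SE) at the strongest promoter peak of each of 24 family and signaling genes outside the cluster, on BGI (filled) and Illumina (open). Irak3 lies at 5.21 and 5.24, and the other signaling genes lie between -1.0 and 0.23.

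Each library was read on both platforms, and the members were compared between them. This comparison is not independent of the choice of the cluster, which was picked by BGI counts, so that sums, summits and single members are given as a description with no p. Members called by the fits over all peaks are counted beside the share of all peaks, and nothing is read from the counts. Summed over the 20 members of the BGI set, BGI gave 310, 294 and 289 CPM in MEFs 1, 2 and 4 and Illumina 275, 272 and 268 CPM. In mESCs 1, 3 and 5 the sums were 48.3, 48.7 and 53.8 CPM on BGI and 43.6, 46.6 and 44.8 CPM on Illumina. On these peaks, called on BGI, BGI was higher in 6 of 6 libraries by a mean of 15.7 CPM, and the platforms did not overlap within either cell type. On the Illumina peak set the mean difference was 16.2 CPM, but BGI was higher in 5 of 6 libraries and the platforms overlapped in mESCs, with 55.2 to 61.5 CPM on BGI and 49.8 to 56.0 CPM on Illumina. When reads were divided by the depth to which the samples had been down-sampled in place of the reads in peaks, the BGI peak set held 96.6 to 112 reads for each 1 M on BGI and 92.1 to 100.1 on Illumina in MEFs, and 17.0 to 19.2 and 15.6 to 17.7 in mESCs, so that the platforms overlapped in both cell types. BGI was again higher in 6 of 6 libraries. The mean difference of 4.53 on this scale is not in the unit of the 15.7 CPM. Relative to Illumina, the BGI mean was 7.76% higher in MEFs and 10.2% in mESCs with down-sampled depths, beside 9.59% and 11.7% with reads in peaks.

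Called summits in the windows of the 6 genes were more numerous on BGI in 6 of 6 libraries, but the number called over the whole genome moved with the platform too. Genome-wide, BGI gave 223387 to 230117 summits and Illumina 216566 to 219464 in MEFs, and in mESCs BGI gave more than Illumina in libraries 3 and 5 (236601 and 251837 against 229198 and 241973) and fewer in library 1 (245395 against 276268). MEF samples had 68.3 ± 2.52 on BGI and 64.7 ± 2.08 on Illumina (SD, n = 3), and mESC samples 19.7 ± 1.15 and 15.3 ± 0.577. The mean difference was 4.0 summits, and the groups overlapped in MEFs. Per 100000 summits called in the same sample, a scaling chosen after seeing the data, the cluster held 29.5 to 30.9 on BGI and 28.9 to 30.5 on Illumina in MEFs, which overlapped, and 7.54 to 8.56 and 5.79 to 6.54 in mESCs, which did not. Counting summits whose -log10 p reached 5, the mean difference was 5.67, with BGI higher in 6 of 6 libraries. For those that reached 10 it was 2.17 and for distinct called intervals 2.33, each with BGI higher in 4 of 6 libraries.

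Peak by peak, the platform differences were small. In MEFs they ran from -0.25 to 0.29 on the log2 scale over 18 members, with 13 above 0, and a median of 0.13 beside 0.07 over all peaks. None was called by edgeR without pairing (4.06% of all peaks were). An unadjusted p under 0.05 was held by 3 of the 18 members, beside 9398 of all 61891 peaks. DESeq2 called 1 of the 16 to which it gave an adjusted p, the Il1rl1 intron peak (12.8% of all peaks with an adjusted p). With the library number as a block, since each library was read on both platforms, 5 members were called higher on BGI (13.9% of all peaks) and 1 lower (15.3%). DESeq2 with the same block called 1 of 15, again the Il1rl1 intron peak (14.6%). The Il1rl1 intron peak held 57.4, 59.8 and 50.8 CPM on BGI and 48.1, 48.0 and 42.4 CPM on Illumina in MEFs 1, 2 and 4 of the MEF set, higher on BGI in 3 of 3 libraries. Its log2 difference was 0.26 ± 0.08 without the block and 0.26 ± 0.05 with it. The others called higher with the block were the Il1r1 upstream promoter (0.27 ± 0.07), the Il1rl2 intron 9 peak (0.24 ± 0.06), the proximal Il1rl1 promoter (0.29 ± 0.11) and an intron peak of Il1r1 (0.23 ± 0.09). The GC-rich downstream promoter of Il1r1 went the other way, with 22.6, 17.9 and 24.1 CPM on BGI and 21.4, 25.3 and 28.8 CPM on Illumina, lower on BGI in 2 of 3 libraries (-0.24 ± 0.07 with the block). DESeq2 with the block called none of these 5 peaks.

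The platform difference was set beside the GC content of the peaks. Of the 12 members of the MEF set under 50% GC, 11 had a log2 difference above 0, beside 84.2% of all MEF peaks under 50%, and of the 6 at or over 50%, 2 did, beside 46.3%. Spearman's rho between GC and the difference was -0.34 over the 18 members and -0.58 over 61846 MEF peaks, where the points share libraries and depth. In the mESC set the 1 member under 50% GC was above 0 (73.1% of all mESC peaks under 50%), as were 2 of the 4 at or over 50% (42.4%), with rho at -0.70 over these 5 and -0.55 over 66993 peaks. The relation over so few members was not tested. With a GC offset added to the block, 1 of 18 members was still called in MEFs (12.7% of all peaks), the Il1rl2 intron 9 peak (0.16 ± 0.05), and the Il1rl1 intron peak was at 0.11 ± 0.04. In mESCs none of 5 members was called by edgeR without pairing (3.23% of all peaks). None had an unadjusted p under 0.05, beside 8756 of all 67063 peaks. DESeq2 called none either, and it gave an adjusted p to 1 member and called 5.75% of all peaks with one. With the block the downstream promoter of Il1r1 was called lower on BGI (-0.24 ± 0.09, 15.6% of all peaks) and the mESC-higher intron peak of Il1r1 higher (0.35 ± 0.13, 5.78%). By DESeq2 with the block the former was not called and the latter had no adjusted p (9.25% of all peaks with one were called). With the GC offset neither was called, and 1 of the 5 was, the third Il1rl2 promoter peak (0.34 ± 0.12, 8.56% of all peaks).

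**Figure D5:**
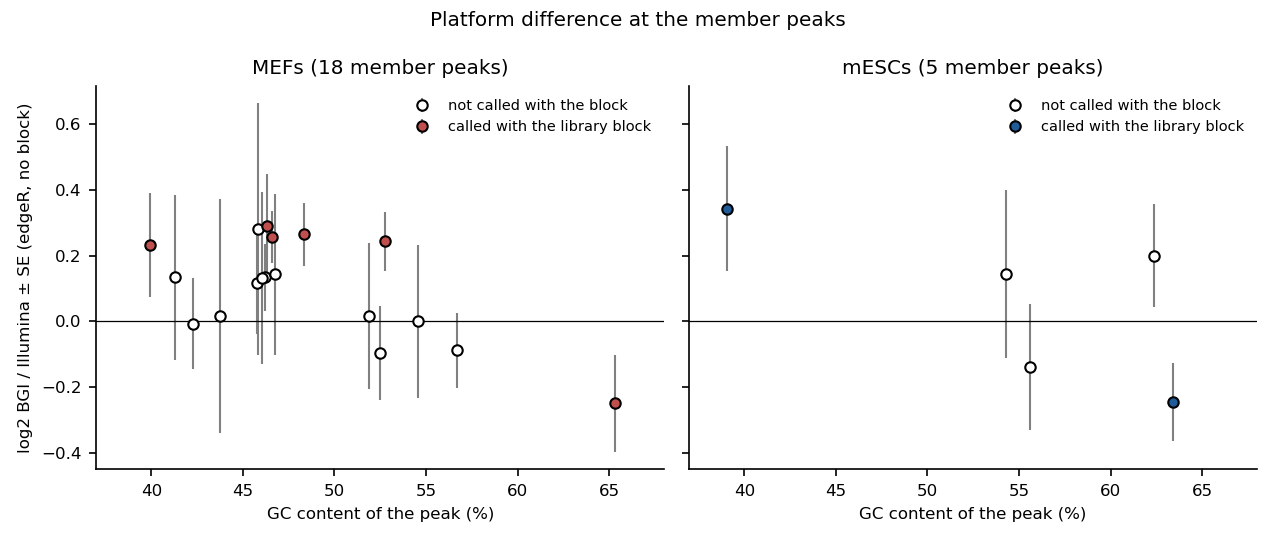
The log2 ratio of BGI to Illumina (± SE, without pairing) against the GC content of the member peaks, 18 in MEFs and 5 in mESCs, with filled points for those called once libraries were paired. In MEFs 11 of the 12 peaks under 50% GC lie above 0, and the peak of highest GC lies at -0.25.

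How far the cell type difference itself differed between platforms was fitted as an interaction on the BGI set. It sets the BGI difference by which the cluster was picked against the Illumina one, so it is not independent of the choice and is a description for the members. It ran from -0.46 to 0.97 on the log2 scale over the 20 members, coded as the BGI to Illumina ratio in mESCs over that in MEFs. The median was 0.43 over the members and 0.11 over all peaks. With RLE size factors these medians were 0.31 and -0.01, so the level depends on the normalization. No member was called by edgeR (0% of all peaks were), where 3 members and 2386 of all peaks had an unadjusted p under 0.05. DESeq2 called no member and 0% of all peaks, where 0 members and 1388 peaks had an unadjusted p under 0.05. With libraries as a block edgeR called no member and 353 peaks (0.386%), where 4 members and 12094 peaks had an unadjusted p under 0.05. The proximal Il1rl1 promoter had the largest value of the members (0.97 ± 0.44). It rested on few mESC reads, 8 to 10 a sample on BGI and 3 to 5 on Illumina.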

How the data were processed

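OMNI-ATAC-seq libraries of 3 MEF and 3 mESC samples, biological replicates per the methods, were each sequenced on both platforms. Per the study's methods, the authors trimmed the reads, aligned them with Bowtie2 to mm10, removed duplicates and mitochondrial reads, kept a mapping quality of at least 10 and down-sampled MEF samples to 60 M and mESC samples to 45 M reads. Down-sampling sets the depth alike within a cell type but not between cell types. The authors called summits in each sample with MACS2 at p 0.01, and the deposited summit files give a fold enrichment (ratio) over the genome-wide background and a -log10 p. Summits were extended to a fixed width, and the deposited peak lists hold those with a depth-scaled score reaching 3 or more in 2 or more samples per group. The deposited count tables hold raw read counts in 4 merged peak sets (both cell types on BGI, both cell types on Illumina, MEFs, mESCs). Count columns without a platform suffix were taken as Illumina, since the column of the same library with the suffix is the BGI one.

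CPM (counts-per-million) was computed over the reads in the peaks of a set. Peaks were placed on GENCODE M21 genes, with a promoter within 1 kb of a start site, and followed between sets where they overlapped by at least 50% of their width. Differences were fitted over all peaks of a set with edgeR 4.0.16 (TMM, quasi-likelihood F test, Benjamini-Hochberg adjustment, threshold 0.05) in R 4.3.3, with the 6 samples of 1 platform for the cell types, the 6 of 1 cell type for the platforms and all 12 for the interaction. DESeq2 1.42.0, RLE size factors, down-sampled depths, a mean count of at least 50, a window of 20 kb, the replicate block and leaving out each library were alternatives, and the scripts were tested on simulated data. Cluster sums and summit counts were compared between platforms as mean differences with the number of libraries higher on BGI. An exact permutation test had been planned for them, and its p is not given because the choice of the cluster used BGI counts. Summits per 100000 called were added after seeing the data. DESeq2 shares are over the peaks to which it gave an adjusted p. Libraries were paired across platforms because both platforms read the same library. Deviations from the group means correlated at 0.618 to 0.837 (MEF) and 0.515 to 0.724 (mESC) between samples of the same library and at -0.676 to 0.293 and -0.510 to -0.115 between others. Peaks were named if they were at a start site of a member gene, were among the 2 highest of their gene, or were the Il1rl1 intron peak. Any other member described singly was chosen after its values were seen. Of the genes outside the cluster, ligands and receptors with a promoter peak and the 2 highest and 2 lowest signaling genes by BGI log2 difference were named. The members and lists were chosen with earlier results of these data known. P-values over 3 libraries measure the spread between these libraries, and a second read-out of a library is no further biological replicate. Intervals of counts cover counting error only.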

Additional observations from a re-analysis of the deposited data

Results flagged for a closer look

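At the Il1rl2 promoter peak 1.57 kb into the gene (chr1:40325925-40326426), the platform ratio took opposite signs in the cell types. The log2 ratio of BGI to Illumina, with 0.5 added to each CPM, was -0.04, -0.30 and -0.15 for MEFs 1, 2 and 4. It was 0.08, 0.26 and 0.36 for mESCs 1, 3 and 5. The mean in mESCs was 0.39 above that in MEFs. The edgeR interaction for this peak, fitted to counts with TMM factors and so on another scale, was 0.54 ± 0.21, beside a median of 0.11 over all peaks. It was not called, and it is not independent of the choice of the cluster, which used BGI counts.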

How the results depend on the processing

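With each library left out, 18 to 19 members were called between cell types on BGI and 19 on Illumina, counts that the choice of members fixes in part and that support nothing. On BGI, down-sampled depths turned the Il1rl2 peak at 40325925 to 0.0097 and took the Il1r2 peak at 40116366 to -0.50, no longer called. That Il1r2 peak was also lost on BGI without MEF 4 (-0.49) and without mESC 1 (-0.41). On Illumina both matching peaks stayed called with the same sign under these settings, the Il1r2 one at -0.99 to -0.59 with a library left out. Of the genes outside the cluster, 4 on BGI and 3 on Illumina passed when a log2 difference of at least 1 was also required, against 13 and 18, and leaving out a library gave 12 to 14 and 16 to 19. Chuk ran from -0.017 (without mESC 3, reversed) to 0.19 on Illumina with a library left out and passed on BGI without mESC 5 (0.26) and with down-sampled depths (0.30). The replicate block, which pairs the platforms by library, raised the members called between platforms from 0 to 6 in MEFs and from 0 to 2 in mESCs, and with a GC offset to 1 and 1. Calls over all peaks rose too, from 2514 to 18075 of 61891 in MEFs and from 2164 to 14304 of 67063 in mESCs. With the GC offset they were 12.7% and 8.56% of all peaks. DESeq2 called 1 member in MEFs without or with the replicate block (12.8% and 14.6% of all peaks with an adjusted p). Leaving out a library, edgeR called 0 to 1 members in MEFs (the Il1rl2 intron 9 peak without MEF 4, 0.27) and 0 in mESCs. The share of all peaks for these fits is not given, and nothing is read from their counts. For the interaction the replicate block called none of the 20 members, as without it, but 353 of all peaks against 0. The summed CPM difference of 15.7 was 11.8 to 18.4 with a library left out and 16.2 on the Illumina peak set. It was 4.53 per 1 M down-sampled reads, another unit, in which BGI was 7.76% (MEFs) and 10.2% (mESCs) higher, against 9.59% and 11.7%. The difference of 4.0 summits was 3.80 to 4.20 with a library left out, 5.67 for summits reaching a -log10 p of 5, 2.17 for those reaching 10, 2.33 for distinct intervals and 3.33 for unextended gene bodies. Per 100000 called, another unit and chosen after seeing the data, it was 1.18. Pairing the libraries by the replicate block leaves these mean differences as they are. No p is given for them, since the choice of the cluster used BGI counts. RLE factors moved the median interaction of all peaks from 0.11 to -0.01. The cause of these changes was not tested, and depth limits the mESC values, where most members held under 20 reads.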

Other observations

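Among the 5 peaks most like the Il1rl1 intron peak, the promoter of the intraflagellar transport gene Ift43 was the closest (root mean square difference 0.286), with 50 ± 8.59 CPM in MEFs and 1.32 ± 0.540 CPM in mESCs on BGI (SD, n = 3).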
